A study of Mus musculus with 2 samples.

Results

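The cytosolic ribosomal proteins are the protein components of the large and small subunits of the ribosome that translates nuclear mRNAs. Members were the non-control spots whose gene name in the scanner files was Rpl or Rps followed by a number and an optional letter, or Rplp0, Rplp1, Rplp2 or Rpsa, which left out the kinase genes named Rps6k and names of pseudogenes. The rule found 139 spots of 130 probes for 78 genes, among 27671 genes on the array, with 46 genes of the large subunit and its stalk and 32 genes of the small subunit.

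Both groups are M/E cells, a line derived from murine bone marrow through expression of MLL/ENL, a leukaemia fusion gene. Their genotype is Mef2c del/-, and per the labels they express no functional form of Mef2c. MEF2C-ASR cells carried a retroviral vector (MYs-pMef2cASR) for a constitutively active, histone deacetylase binding mutant of Mef2c, and control cells carried the empty vector MYs-iPAC. Both were selected with puromycin and grown with SCF at 100 ng/ml and with IL3, GM-CSF and IL6 at 10 ng/ml. RNA harvested 6, 24 and 48 h after seeding was pooled, so each group is 1 array of 1 pool of 3 harvests from 1 line. With 1 array per group there was no replicate spread and no test was run, and values below describe these 2 arrays.

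Each ribosome carries 1 copy of nearly every ribosomal protein, with the acidic stalk proteins as an exception, so cells make these proteins in matched amounts. Their mRNAs are among the most abundant of a growing cell. Most start with a cytosine and a run of pyrimidines, the 5′ terminal oligopyrimidine (TOP) tract, through which growth signals acting on mTOR and Larp1 control their translation. Levels of these mRNAs therefore do not give the rate at which the proteins are made. In blood cell formation the family is known from Diamond-Blackfan anaemia, in which loss of 1 copy of a ribosomal protein gene impairs red cell production.

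The start windows below show the tract at the annotated start of some members and, in Rplp0, Rps28 and the paralogs Rpl3l and Rps27l, annotated starts without it. They are 30-base windows of RefSeq, build GRCm38.p6, with 15 bases before the annotated start and 15 from it. Capitals mark the run of pyrimidines that begins with C at the annotated start.
Rps6, chr4:86857353-86857382, minus strand: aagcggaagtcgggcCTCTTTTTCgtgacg
Rps18, chr17:33955651-33955680, minus strand: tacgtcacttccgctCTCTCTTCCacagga
Rps10, chr17:27635230-27635259, minus strand: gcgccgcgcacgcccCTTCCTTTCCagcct
Rpl28, chr7:4792950-4792979, plus strand: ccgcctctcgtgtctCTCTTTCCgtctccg
Rpl35, chr2:39005117-39005146, minus strand: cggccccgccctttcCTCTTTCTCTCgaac
Rpl38, chr11:114668565-114668594, plus strand: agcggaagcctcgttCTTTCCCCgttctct
Rplp2, chr7:141447636-141447665, plus strand: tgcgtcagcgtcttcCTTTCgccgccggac
Rplp0, chr5:115559452-115559481, plus strand: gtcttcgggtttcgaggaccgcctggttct
Rps28, chr17:33824548-33824577, minus strand: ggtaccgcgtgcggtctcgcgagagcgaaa
Rpl3l, chr17:24727811-24727840, plus strand: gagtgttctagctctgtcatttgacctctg
Rps27l, chr9:66946071-66946100, plus strand: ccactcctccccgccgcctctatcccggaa

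The RefSeq table held start windows for 57 of the 78 members. A C at the annotated start followed by at least 4 pyrimidines was found in 13 of them (22.8%), against 813 of the 27025 genes in the table (3.01%). The other 44 members had no run at the annotated start, among them core proteins such as Rplp0 and Rps28 and the Rps27 paralog Rps27l. Another was Rpl3l, a paralog of Rpl3 known for its expression in heart and skeletal muscle. Where transcription starts in these cells was not measured, so these counts do not show which mRNAs lack a tract. A run of this kind began within 10 bases of the annotated start in 35 members (61.4%), which include the 13, and in 34.4% of all genes. The letters CCGGAAG on either strand, a form of the motif bound by ETS factors, stood in the window from 250 bases before the start to 50 after it in 23 members (40.4%) and in 9.93% of all genes. Its reverse strand can overlap a pyrimidine run. A match is a description of the letters and not of binding. The 13 members with a run at the annotated start had a median log2 difference, MEF2C-ASR minus control, of 0.02 (range -0.05 to 0.99). The 43 measured members without a run there had -0.03 (range -0.28 to 0.19). The highest value among the 13 was that of Rps6, which is described below.

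The ribosomal protein transcripts had nearly the same level on the MEF2C-ASR and the control array. Of the 78 genes, 77 had a probe well above background on both arrays, namely 45 of the large and 32 of the small subunit, measured by 127 of the 130 probes. Their median log2 difference was -0.01, with 35 genes above 0 and 42 below, beside -0.03 over all 16584 measured genes. Of the 77 genes, 75 (97.4%) lay within 1.2-fold of equality, compared with 68.2% of all measured genes, and 68 (88.3%) lay within 1.1-fold, compared with 42.9% of all. The standard deviation across the 77 genes was 0.14 on the log2 scale, or 0.08 over the 76 genes other than Rps6, against 0.42 across all measured genes. In RNA of whole cultures, fewer cells of a type and less RNA per cell cannot be told apart, and scaling within each array hides a change shared by most transcripts.

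Differences in this text are log2 signals after each array was scaled to its 75th percentile, a signal of 1240 on the MEF2C-ASR and 1272 on the control array, so equal signals on both arrays give a difference of 0.04. A gene was counted as higher or lower when the mean over its probes passed a fold and all its measured probes lay on that side of 0. At 1.2-fold, 0 members were higher and 1 was lower (Rps4x), where 14.1% of all genes were higher and 17.1% lower. At 1.5-fold, 0 members were higher and 0 lower, where 4.46% of all genes were higher and 5.04% lower. At 2-fold, 0 members were higher and 0 lower, where 1.74% of all genes were higher and 1.91% lower. By the mean of its probes alone, 1 member, Rps6, passed 1.5-fold upward, and its probes lay on opposite sides of 0.

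Whole-array values bear on these counts. Of the non-control spots, 67.5% were well above background on the MEF2C-ASR and 60.1% on the control array, and both arrays lay on 1 slide, per the file headers. The limit differed between the arrays: the lowest signal counted as well above background was 19.98 on the MEF2C-ASR and 38.30 on the control array. The measured Mef2c probe gave 1969 with MEF2C-ASR and 795 in control cells, a difference of 1.34, and the other Mef2c probe was too dim on both arrays. The measured probe thus gave signal well above background in control cells too, and whether it lies in the deleted part of the gene is not given in the files. All 8 myeloid progenitor markers were well above background on both arrays. Of 10 markers of other cells, which were B cell genes Cd79b and Ms4a1, T cell genes Cd3e, Cd3g and Cd8a, erythroid genes Hba-a1 and Epor, and stromal genes Col1a1, Col1a2 and Pdgfra, 8 were well above background on the MEF2C-ASR and 6 on the control array. The highest signal of each of these 10 ran from 11.9 to 316 with MEF2C-ASR and from 11.5 to 212 in control cells, against 232 to 143027 with MEF2C-ASR and 222 to 68289 in control cells for the myeloid markers. Cd79b and Ms4a1 were the markers well above background on the MEF2C-ASR array alone. Their signals were close on both arrays, at 28.9 and 23.9 with MEF2C-ASR and 27.0 and 21.2 in control cells. The part of the marker signals in the ribosomal protein values was not tested. A probe printed at 10 positions carried a spotting SD of 0.13 for its difference (150 such probes), or 0.04 for the 18 of these with a signal of at least 20000 on both arrays. These leave out variation between cultures, RNA pools and labelling.

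**Figure D1:**
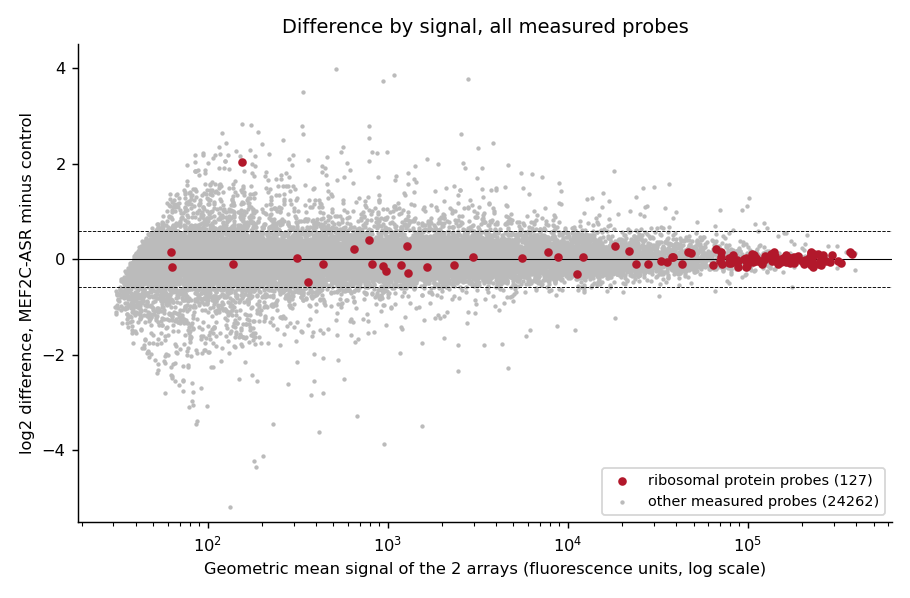
Log2 difference, MEF2C-ASR minus control, against the geometric mean signal of the 2 arrays (log axis), with 1 point per measured probe and dashed lines at 1.5-fold. The 127 ribosomal protein probes lie close to 0 at the bright end, and 1 dim probe stands at 2.04.

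The agreement was closest where the signal was high. Of the 127 measured probes, 103, from 73 genes, had a signal of at least 20000 on both arrays, and all 103 lay within 1.2-fold, from -0.17 to 0.22. Among the 1448 other probes as bright, 84.1% lay within 1.2-fold. The standard deviation of the difference was 0.08 over the bright ribosomal protein probes and 0.21 over the other bright probes. In the brightest range, from a signal of 100000 on both arrays, it was 0.07 over 71 ribosomal protein probes and 0.16 over 158 others. No spot of a member was saturated, and the highest member signal was 389787, for Rps14 on the MEF2C-ASR array, beside 369780 on the control array (0.11).

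The other 24 probes, of 20 genes, were dimmer and ran from -0.47 to 2.04. Of these, 17 (70.8%) lay within 1.2-fold, close to the 66.7% of 22814 other probes as dim. The members past 1.2-fold by their probe mean, Rps6 and Rps4x, were past it through such a probe. With only the bright probes, all 73 genes that had one lay from -0.16 to 0.17.

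Rps6, a small subunit protein that S6 kinases phosphorylate in response to growth signals, had 2 probes that disagreed. The bright probe, at chr4:86259708-86259899 in the files, for which the sources used here give no build, gave signals of 165903 with MEF2C-ASR and 177303 in control cells (-0.06). The dim probe, at chr4:86241021-86241080, gave 311 with MEF2C-ASR and 77.6 in control cells, a log2 difference of 2.04 or 4.11-fold, the widest of any member probe. Only the distant probe was higher with MEF2C-ASR. It lies 18.6 kb from the bright one, and 3 measured probes of the gene 1700065A05Rik between them differed by -0.19 to 0.06. Which transcript the distant probe reads was not tested, and the gene mean of 0.99 averages the 2 probes.

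Rps4x, an X-linked gene for a small subunit protein, was the member furthest below 0 (-0.28). Its bright probe gave 173860 with MEF2C-ASR and 188075 in control cells (-0.08). Its dim probe gave 304 with MEF2C-ASR and 433 in control cells (-0.47). Both probes were lower with MEF2C-ASR, and the bright one alone lay within 1.2-fold.

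Rps25, a head protein of the small subunit that serves internal ribosome entry sites of viruses, had a bright probe at 171042 with MEF2C-ASR and 178718 in control cells (-0.03). Its dim probe gave 900 with MEF2C-ASR and 697 in control cells (0.40). Rpl21 had only dimmer probes, at 10032 with MEF2C-ASR against 12693 in control cells (-0.30) and at 689 against 608 (0.22). Rpl27a likewise gave 19855 with MEF2C-ASR and 16927 in control cells on 1 probe (0.27) and 886 with MEF2C-ASR against 997 in control cells on the other (-0.13). Rps24 gave 139151 with MEF2C-ASR and 131904 in control cells on its bright probe (0.11) and differences of -0.13 and -0.28 on its dim ones. In these genes the sign depended on the probe. Of the 38 members with several measured probes, 24 had all probes on 1 side of 0 and 14 did not. The same share over all genes is not given here.

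Some small differences recurred over several bright probes of 1 gene. Rpl29, a large subunit protein, had 4 bright probes with signals of 73543, 22888, 70596 and 50264 with MEF2C-ASR, against 67854, 20964, 62219 and 47135 in control cells. All 4 were higher with MEF2C-ASR, by 0.13 to 0.22, and in the files the positions of some of them overlap. Rps28, a small protein of the subunit head, gave 231503, 145466 and 241384 with MEF2C-ASR, against 215656, 134867 and 228248 in control cells. These 3 probes, of which 1 overlaps each of the others in position, were higher with MEF2C-ASR by 0.12 to 0.15. Other members went the opposite way on every bright probe, with Rpl7 at -0.10 to -0.03 over 3 probes, Rpl7a at -0.10 to -0.03 over 3 and Rps3a at -0.16 and -0.09. Across the 22 genes with several bright probes (52 probes), the within-gene SD was 0.06 and the SD between gene means was 0.08. Of the 22 genes, 16 had all bright probes on 1 side of 0. The same share over other genes is not given here. Some of these probes overlap in position, and the agreement in sign was not tested.

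**Figure D2:**
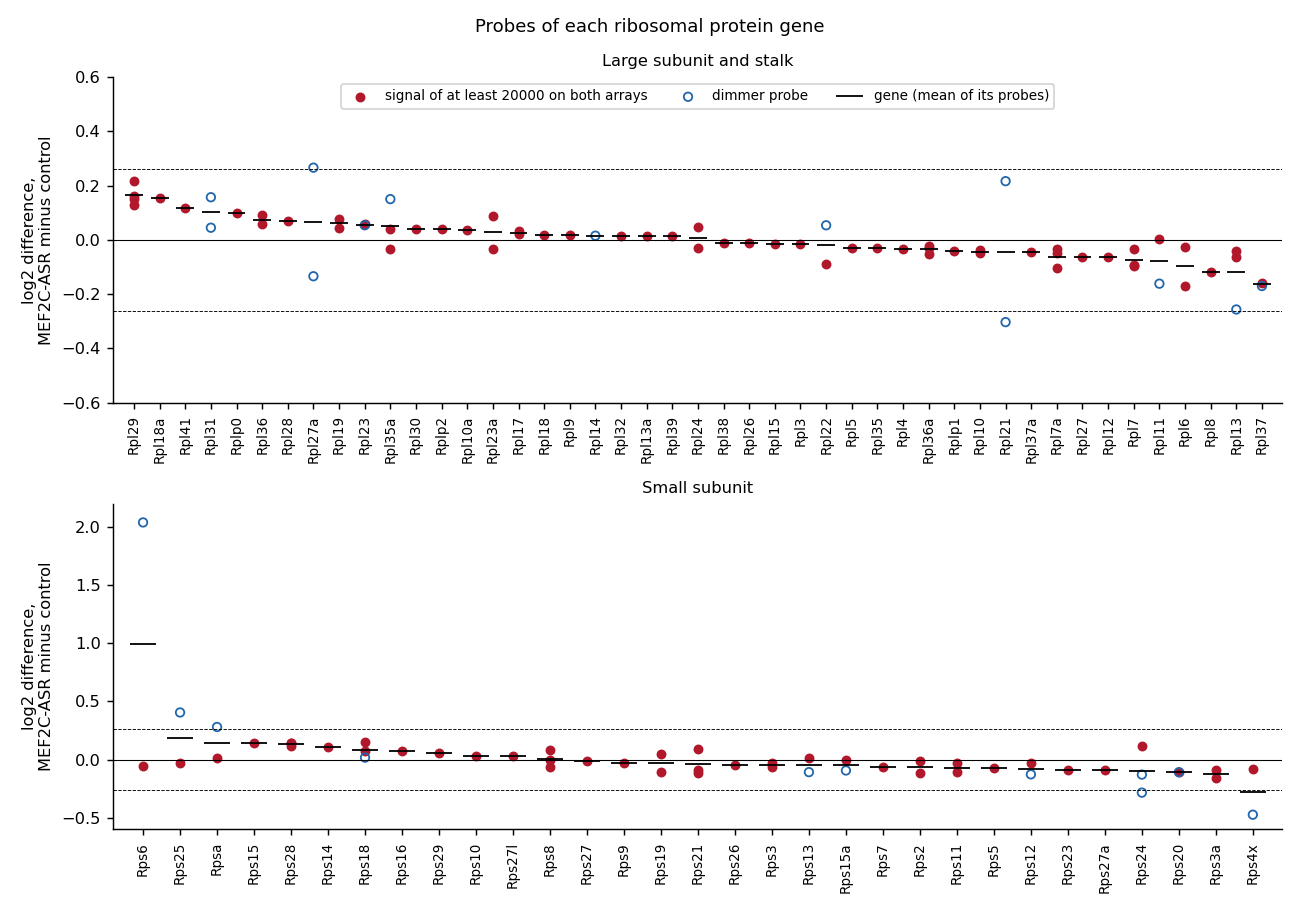
Log2 difference, MEF2C-ASR minus control, of each measured probe of 76 of the 77 genes, ordered within each subunit by the gene's mean (black bar), with filled points for signals of at least 20000 on both arrays and open points for dimmer probes. Dashed lines mark 1.2-fold. Only open points lie outside them, the highest being the Rps6 probe at 2.04.

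The 45 large subunit genes had a median difference of 0.01 (range -0.16 to 0.17), and the 32 small subunit genes -0.04 (range -0.28 to 0.99). At the top of the large subunit, Rpl29 stood at 0.17, and at its lower end Rpl37 stood at -0.16. This gap has no replicate and was not tested.

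The stalk proteins form the flexible arm that recruits translation factors. Rplp0, its base, was printed at 10 positions, with signals from 104134 to 112146 (median 107775) with MEF2C-ASR and from 100181 to 105476 (median 103450) in control cells. Its difference was 0.10 ± 0.02 (SD over 10 spots of the same arrays), above 0 at all 10 positions, and the lowest spots with MEF2C-ASR overlapped the highest of the control. The files place this probe on chromosome 8, while the RefSeq start of Rplp0 is on chromosome 5. Rplp1 gave 244727 with MEF2C-ASR and 258500 in control cells (-0.04). Rplp2 gave 259576 with MEF2C-ASR and 258878 in control cells (0.04). Rpl12, the other protein at the stalk base, gave 205555 with MEF2C-ASR and 220291 in control cells (-0.06). The 4 stalk genes thus split evenly about 0.

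Proteins around the exit of the nascent chain tunnel varied as little. Their 9 genes had a median of 0.01 and a range of -0.03 to 0.10. Rpl31 was at 0.10, Rpl19 at 0.06 and Rpl35 at -0.03, and Rpl35 gave 133421 with MEF2C-ASR and 139782 in control cells.

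Rpl5 and Rpl11 bind 5S RNA and, with other members, can bind Mdm2 and so stabilise p53 when ribosome assembly fails. The 6 genes of this group had a median of -0.02, and all lay within 1.2-fold. Rpl11 was at -0.08, from a bright probe at 172412 with MEF2C-ASR and 176352 in control cells (0.00) and a dim one at 1547 with MEF2C-ASR and 1774 in control cells (-0.16). Rps7 was at -0.06 and Rpl23 at 0.06. Rps27l, described as a p53 target, gave 78219 with MEF2C-ASR and 78639 in control cells (0.03).

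The small subunit head, which moves during translocation, had 14 measured genes with a median of 0.00 and 7 genes on either side of 0. Beside Rps25, described above, Rps15 gave 48610 with MEF2C-ASR and 45214 in control cells (0.14), which was within 1.2-fold.

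All 16 genes listed for Diamond-Blackfan anaemia were measured and lay within 1.2-fold, with a median of -0.02, 5 above 0 and 11 below. Rps28 was at 0.13 and Rpl31 at 0.10. Rps19, the gene most often mutated in this anaemia, gave 26547 with MEF2C-ASR and 29280 in control cells on 1 probe (-0.11) and 163676 with MEF2C-ASR and 162745 in control cells on another (0.04).

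Rpsa, a small subunit protein also known as the laminin receptor, gave 94605 with MEF2C-ASR and 96180 in control cells on its bright probe (0.01) and 1393 with MEF2C-ASR and 1176 in control cells on its dim one (0.28). Rpl3l was the member with no measured probe. Its signal was 38.4 with MEF2C-ASR, where it was well above background, and 38.6 in control cells, where it was not. Further probes of Rps19 (24.6 with MEF2C-ASR and 25.2 in control cells) and Rps2 (4.36 with MEF2C-ASR and 8.10 in control cells) were also not measured, while both genes had others that were.

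By the mean of their probes, measured ribosomal proteins and paralogs whose names fall outside the rule also lay within 1.2-fold. Fau, the ubiquitin-like fusion that yields Rps30, gave 242564 with MEF2C-ASR and 272766 in control cells (-0.13). Rack1, a scaffold on the small subunit, was at -0.01. The paralogs Rpl22l1 and Rpl36al were at 0.01 and -0.02, and Rpl7l1 was at -0.25, with both of its probes below 0. Of 72 further probes described in the files as similar to a ribosomal protein, 69 were measured, with a median of -0.05. They ranged from -0.42 to 0.23, so some lay outside 1.2-fold. None of these probes was past 1.5-fold by its own value. The shares over all genes, 4.46% higher and 5.04% lower, are of genes and rest on probe means and the rule on probe signs.

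The ribosome biogenesis list held 58 genes of RNA polymerase I, rRNA processing and subunit assembly, all measured. Its median difference was -0.21, with 53 genes below 0 and 5 above, beside the ribosomal protein median of -0.01. The median of all measured genes was itself below 0 (-0.03), and 50 of the 58 lay below that median. Of the 58, 15 were at least 1.2-fold lower with MEF2C-ASR and 0 higher, beside 17.1% lower and 14.1% higher over all genes. At 1.5-fold 1 of the 58 was lower, beside 5.04% of all genes. That gene was Polr1b, a core subunit of RNA polymerase I, with a signal of 2037 with MEF2C-ASR and 4592 in control cells (-1.14) on its only measured probe. Without it the list reached down to -0.53 (Utp20). In 23 of the 31 list genes with several measured probes, all probes were below 0. The same share over all genes is not given here. The difference between the lists has no replicate and was not tested.

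Mitochondrial ribosomal proteins form the separate ribosome of the mitochondrion. Their 78 measured genes had a median of -0.08, 22 above 0 and 56 below, beside a median of -0.03 over all measured genes. At 1.2-fold 2 were higher and 8 lower, beside 14.1% and 17.1% of all genes. None was past 1.5-fold, beside 4.46% higher and 5.04% lower over all genes, and the widest were Mrpl17 at -0.37 (15153 with MEF2C-ASR and 20017 in control cells) and Mrps5 at -0.36 (4 probes, all below 0). The 46 translation factor genes had a median of -0.08, 9 above 0 and 37 below, with 1 at least 1.2-fold higher, 3 lower and none past 1.5-fold, against the same shares of all genes. Eif2b2, a subunit of the exchange factor for eIF2, was at 0.41 on 1 probe (48346 with MEF2C-ASR and 37420 in control cells). The other listed subunits of this factor were all below 0. Pabpc4, a poly(A) binding protein, was at -0.36 on 2 probes. Standard deviations were 0.14 within each of these lists and 0.14 within the ribosomal proteins (0.08 without Rps6), and the lists were not matched for signal.

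The growth signalling list held kinases, TOP mRNA regulators and MYC network genes that act on ribosome production, with 28 of 29 measured. Its median was 0.05, with 17 genes above 0 and 11 below. At 1.2-fold 5 were higher and 0 lower, beside 14.1% higher and 17.1% lower over all genes. At 1.5-fold 1 was higher and 0 lower, beside 4.46% and 5.04% of all genes. Mxd1, a MAX partner that represses genes which MYC activates, was past 1.5-fold, at 3536 with MEF2C-ASR and 1888 in control cells (0.92 on 2 probes that differed by less than 0.1). Chosen after their values were seen, the related repressors Mxi1 (0.47) and Mxd4 (0.38) were also higher with MEF2C-ASR on both probes of each. Myc itself was at 0.14 over 3 probes, Larp1 at -0.18 over 5, and Mtor at -0.07 over 2 of opposite sign.

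**Figure D3:**
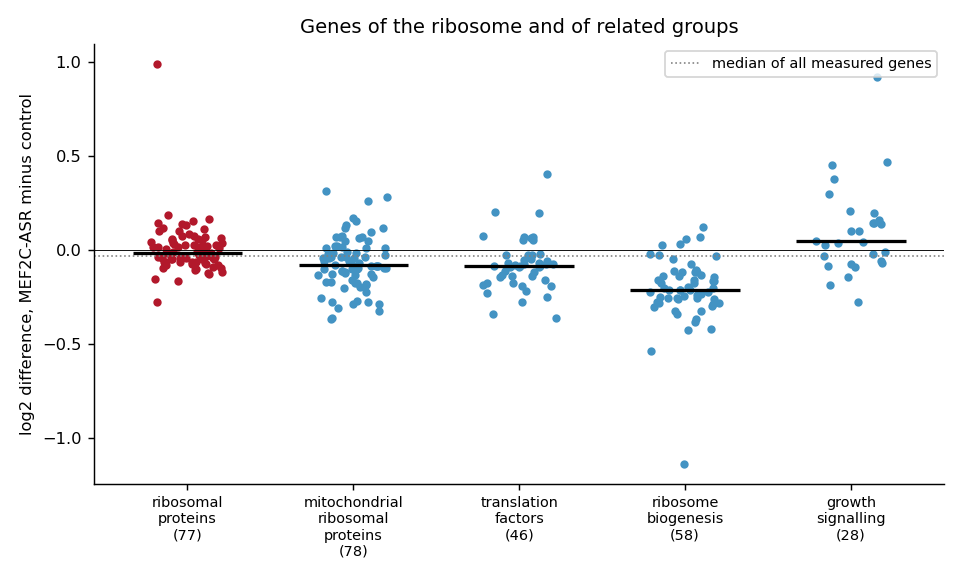
Log2 difference, MEF2C-ASR minus control, of every measured gene in each group, 1 point per gene, with the group median as a bar and the median of all measured genes dotted. The ribosomal proteins centre on -0.01, with Rps6 apart from the rest, and the ribosome biogenesis genes centre on -0.21.

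**Figure D4:**
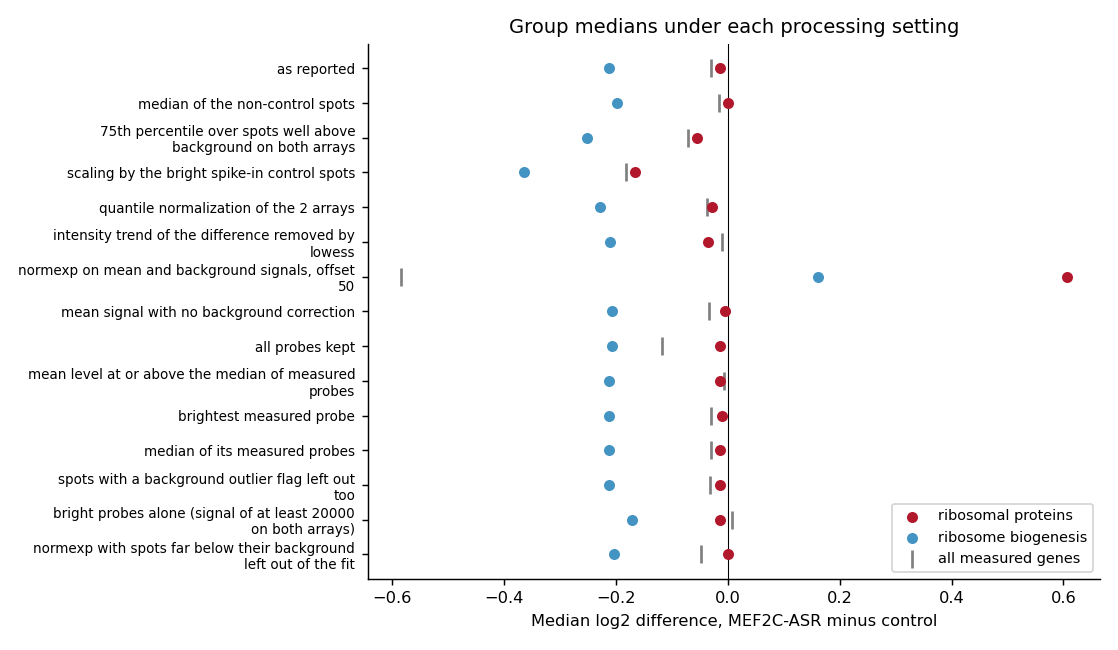
Median log2 difference, MEF2C-ASR minus control, of the ribosomal proteins, the ribosome biogenesis genes and all measured genes under each processing setting. The ribosome biogenesis median lies below the ribosomal protein median in every setting shown, while the position of both against 0 moves with the scaling and with 1 background correction. Settings that only rescale an array shift all genes alike and keep the distance between the medians by construction.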

How the data were processed

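The deposited values are Cy3 spot intensity values on a linear scale from 1-colour Agilent arrays, made per the file headers with Agilent Feature Extraction 9.5.1.1, which subtracted background and set the flags used here. The deposited value table held the same intensity values. For the probe positions, the sources used here give no build. On the log2 scale, signals were centred on the 75th percentile of 43379 non-control spots per array. A probe was measured when well above background on both arrays, unsaturated and without a feature outlier flag. Spots of a probe, then probes of a gene, were averaged. Probes of other genes were named through RefSeq (GRCm38.p6), of 41174 probes 22951 through an accession, 6659 through a current symbol and 3109 through a former one. Members keep the files' names. Values of 1 member and of some listed genes are not reported here, though counts and medians include them.

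Named are members at least 1.2-fold apart, up to 3 of largest difference in each structural or disease group, stalk genes, Rpsa, paralogs, unmeasured members, members whose probes differ in sign by over 1.2-fold, and in related lists genes past 1.5-fold or else the 2 of largest difference. Rpl29, Rpl7, Rpl7a, Rps3a, Rpl37, Rps14, Rps19, Rps2, Rack1, Utp20, Mxi1, Mxd4, Myc, Larp1 and Mtor were named after their values were seen. The members and lists were chosen with earlier results of these data known. On simulated arrays of the MEF2C-ASR against control comparison (16584 genes, spotting noise only), the steps recovered 200 of 200 genes changed 4-fold. That checks the steps alone: no smaller change was simulated, so it does not bear on differences below 1.2-fold. Python 3.11.15, pandas 2.3.3, R 4.3.3 and limma 3.58.1 were used. Alternatives covered scaling, background, filters, probe averaging and flags.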

Additional observations from a re-analysis of the deposited data

How the results depend on the processing

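With 1 array per group, the spread between replicates is unknown, and a value counted as moved when it shifted by more than the spotting SD of 0.13. That is the error of 1 probe and a wide bar for a median. No paired analysis was possible because each group has 1 array and no test was run.

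Under 11 of 13 other settings the ribosomal protein median lay between -0.05 and 0.00, while the members above 0 numbered 22 to 40, so the sign of the median depends on the setting. Under all 13, by the counting rule given above, 0 members were at least 1.5-fold lower. By its probe mean alone, Rpl37 was at -0.93 under normexp on mean and background signals. Another setting scaled by 5 spike-in controls with a signal above 1000 on both arrays, a lower limit than for the bright probes. These controls themselves differed by 0.15 on average, from 0.07 to 0.21. This scaling lowered every value. The ribosomal protein median was then -0.17, the large subunit -0.14 and the small subunit -0.19. Mitochondrial ribosomal proteins stood at -0.23, translation factors at -0.24 and ribosome biogenesis at -0.36. All genes stood at -0.18, and 73 of the 77 members were below 0. Such scaling shifts all genes alike, so the ribosomal protein median lies 0.02 above that of all genes by construction. It lay below it by lowess (-0.03), among the brighter probes (-0.0068) and with bright probes alone (-0.02).

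Normexp on mean and background signals gave 0.61 for the ribosomal proteins (0.64 large, 0.59 small), 0.44 for mitochondrial ribosomal proteins, 0.36 for translation factors and 0.16 for ribosome biogenesis. The median of all genes was then -0.58. With this setting 48 members were at least 1.5-fold higher, a fold at which all genes were not counted for it. At 2-fold, 211 of all genes were higher and 6552 lower. On the control array 5 spots lay more than 100 below their local background, the lowest at -57949, and on the MEF2C-ASR array 0. With these left out of the fit, an alternative chosen after seeing the data, the ribosomal protein median was 0.00, and 158 genes were at least 2-fold higher and 127 lower, against 289 and 316. The same 2-fold counts were 186 and 157 with no background correction, 790 and 980 with all probes kept, and 100 and 34 among the brighter probes.

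Rps6 became -0.10 with normexp and -0.060 among the brighter probes, by its brightest probe and, an alternative chosen after seeing the data, with bright probes alone. By the mean of the probes alone 1 member was past 1.5-fold upward. Outside the spike-in and normexp settings, 13 values of single members moved or changed direction. Dim probes limit what can be said of Rps6, Rps4x, Rps25, Rpl21, Rpl27a and Rps24, which was 0.11 by its brightest probe and -0.10 by the mean.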
